A study of Rattus norvegicus with 5 samples.

Results

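Adipocyte and lipid storage genes were followed here as a set of 7: the lipases Pnpla2 and Lipe, the fatty acid and glycerol enzymes Acsl1 and Gpd1, the nuclear receptor Pparg, and the fat cell proteins Fabp4 and Cfd. They were chosen by name, each through the RefSeq accession of its array probe, and 8 probes stood for them, of which the brighter was used for Lipe. All 7 passed the detection filter, among 11104 named genes and 18913 features tested. The samples were tumours that the rat glioma line C6-L formed in BALB/c nu/nu nude mice, whose age is given as 6 weeks throughout. Of the 5 single-colour arrays, 3 held metastatic lung nodules and 1 an irradiated primary tumour, with γ-irradiation 6 weeks before sampling in each case. The remaining array held a non-irradiated primary tumour taken 6 weeks after the cells were implanted. The tumour cells were rat and the stroma mouse, and the probes are rat sequences, so host fat, vessel or muscle RNA could be detected only as far as it hybridised across species. Whether different animals gave the nodules is not stated, and each primary is 1 array. The number of arrays thus limits the precision, and the p-values measure only how far the 3 nodules spread, a spread that may be partly technical.

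Stored fat is held as triglyceride in lipid droplets. In lipolysis Pnpla2 (adipose triglyceride lipase) removes the first fatty acid and Lipe (hormone-sensitive lipase) the next. Acsl1 activates fatty acids to their coenzyme A esters, and Gpd1 supplies the glycerol 3-phosphate backbone for new triglyceride. Pparg is the transcription factor that drives fat cell differentiation, and it acts on DNA as a partner of RXR. Fabp4 carries fatty acids inside fat cells, and capillary endothelium and macrophages use it too. Cfd (adipsin, or complement factor D) is a serine protease that fat cells secrete. Many other tissues run lipolysis, heart and skeletal muscle among them, so these enzymes are not markers of fat cells alone.

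Promoter sequences are shown for Pnpla2, the 1 of the 7 genes that passed a test, and for Plin5, the lipid droplet gene that was detected in the irradiated primary alone. Both are RefSeq windows on build GRCr8 that run 250 bases upstream to 50 bases downstream of the annotated start, written 5′ to 3′ on the gene's strand. Entries were found for 4 of the 7 genes. The Pnpla2 window lies at chr1:205982029-205982328 on the + strand, and its capitals mark the GC box GGGCGG, or on the other strand CCGCCC, a motif bound by Sp1. The Plin5 window lies at chr9:1033235-1033534 on the - strand, and its capitals mark AGGTCA, or on the other strand TGACCT, the half-site read by nuclear receptors.
Pnpla2: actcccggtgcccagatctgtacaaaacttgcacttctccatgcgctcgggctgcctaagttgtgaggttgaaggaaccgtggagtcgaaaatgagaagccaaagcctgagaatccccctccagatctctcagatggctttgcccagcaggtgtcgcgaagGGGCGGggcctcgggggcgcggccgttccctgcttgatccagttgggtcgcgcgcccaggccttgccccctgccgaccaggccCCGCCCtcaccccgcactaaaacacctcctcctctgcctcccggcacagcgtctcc
Plin5: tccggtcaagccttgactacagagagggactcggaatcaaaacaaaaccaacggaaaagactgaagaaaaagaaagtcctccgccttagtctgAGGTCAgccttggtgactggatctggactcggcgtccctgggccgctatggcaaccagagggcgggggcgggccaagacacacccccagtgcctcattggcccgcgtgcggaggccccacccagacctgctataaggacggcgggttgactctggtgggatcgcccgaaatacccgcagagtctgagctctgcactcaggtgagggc
The GC box occurred 2 times in the Pnpla2 window, and 33.1% of all 33469 windows held at least 1. AGGTCA occurred 1 time in the Plin5 window and in 16.2% of all windows. The full PPARG-RXR element DR1 (a pair of direct AGGTCA repeats with any 1 base between them, so that it overlaps the half-site) was present in 18 of the 33469 windows (0.0538%, both strands) and in none of the windows of Pnpla2, Plin5, Pparg, Acsl1 and Cfd. These matches describe the letters in each window and were not tested against the expression values.

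Levels are given as log2 of the spot signal relative to the 75th percentile of the same array, so that 0 is that percentile. Levels of different genes come from different probes and were not compared with each other. Between 69.8 and 73.5% of the gene spots of an array passed as well above background, with 0 saturated. The 5 arrays shared 1 slide on which nodules and primaries occupied separate rows, and the effects of row and group cannot be told apart. Fewer cells of a type and less RNA per cell cannot be told apart in such bulk samples either.

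Among the lipolysis genes, the triglyceride lipase Pnpla2 rose 2.03-fold in the nodules against the irradiated primary. No difference from the non-irradiated primary passed the test, and its 95% interval reached from 0.772-fold to 1.39-fold. Its level was 1.42, 1.31 and 1.11 in nodules 1, 2 and 3, against 0.26 in the irradiated and 1.23 in the non-irradiated primary. The irradiated primary was thus the low sample, below every nodule, while the non-irradiated primary lay within the range of the nodules. The log2 change against the irradiated primary was 1.02 (SE 0.16, n = 3 nodules, limma adjusted p = 0.0491), and the nodules themselves varied with an SD of 0.15. The change was 0.05 over the non-irradiated primary (SE 0.16, adjusted p = 0.849, limma, 95% interval -0.37 to 0.47). Between the primaries, with 1 array each and no test, the irradiated primary read 0.97 less than the non-irradiated primary. The 2 spots of the Pnpla2 probe differed by at most 0.055 on any array. The call was lost without nodule 2 (limma adjusted p = 0.203) and without nodule 3 (0.0866), with adjusted p = 0.0076 without nodule 1. No gene could keep a call without nodule 2, where 0 of 18993 features passed. Without nodule 3 191 of 19150 features passed, and without nodule 1 3232 of 19075. The Pnpla2 call was also lost on the deposited value table (0.0596), with quantile normalization (0.0634), with every probe kept (0.0576) and without an intensity trend (0.0975). Over all alternatives the log2 change ran from 0.95 to 1.11.

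Lipe, the lipase for diglycerides, was dim, and no difference passed the test. Its brighter probe read -4.89, -5.00 and -5.26 in the nodules, against -5.47 in the irradiated and -5.11 in the non-irradiated primary. The nodules lay just above the irradiated primary and on both sides of the non-irradiated one. The log2 changes were 0.42 (SE 0.30, limma adjusted p = 0.478) and 0.05 (SE 0.30, adjusted p = 0.913). The other Lipe probe gave -5.30, -5.56 and -5.12 in the nodules, against -6.80 in the irradiated and -6.68 in the non-irradiated primary, where it was not well above background. By that probe Lipe was at least 1.63-fold higher in the nodules than in the irradiated primary and at least 1.74-fold higher than in the non-irradiated primary. Each such bound takes the dim array at the higher of 2 values, the probe's own level and the lowest level that passed as detected on that array, and compares the bright mean with it. The bound applies to the main background subtraction only. With normexp background correction some differences given below, those of Plin5, Cebpa and Pdk4 among them, were smaller than their bound. With the mean of both probes the log2 change was 0.94 against the irradiated primary (adjusted p = 0.158) and 0.70 against the non-irradiated primary (adjusted p = 0.153), both by limma, so the size depends on which of the 2 probes is read.

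The enzymes that feed triglyceride synthesis showed small differences. Acsl1 read 1.66, 1.27 and 1.68 in the nodules, against 1.29 in the irradiated and 0.91 in the non-irradiated primary. All nodules exceeded the non-irradiated primary, and nodule 2 lay just below the irradiated one. Its log2 change was 0.24 (SE 0.21, limma adjusted p = 0.552) against the irradiated primary and 0.63 (SE 0.21, adjusted p = 0.101) against the non-irradiated primary. Gpd1 read 1.59, 2.45 and 2.40 in the nodules, against 1.84 in the irradiated and 2.72 in the non-irradiated primary. Nodule 1 was the lowest of the 5 samples for this enzyme and the non-irradiated primary the highest. The log2 changes of Gpd1 were 0.31 (SE 0.38, limma adjusted p = 0.691) and -0.57 (SE 0.38, adjusted p = 0.34). Without nodule 1 Gpd1 passed against the irradiated primary (log2 change 0.59, limma adjusted p = 0.0221), as did 3232 of 19075 features.

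Pparg, the regulator of fat cell differentiation, differed mainly between the primaries. It read -3.96, -3.97 and -2.99 in the nodules, against -4.67 in the irradiated and -2.78 in the non-irradiated primary. The nodules fell between the primaries, with nodule 3 close to the non-irradiated one. Against the irradiated primary the log2 change was 1.03 (SE 0.47, limma adjusted p = 0.291), and against the non-irradiated primary it was -0.86 (SE 0.47, adjusted p = 0.258). The irradiated primary lay 1.88 below the non-irradiated primary on the log2 scale, or 1.18 below it with normexp background correction.

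The fat cell markers Fabp4 and Cfd varied more among the nodules than they differed from the irradiated primary. Fabp4 read -4.64, -4.43 and -2.14 in nodules 1, 2 and 3, against -3.98 in the irradiated and -5.79 in the non-irradiated primary. Nodule 3 was the high sample, nodules 1 and 2 lay under the irradiated primary, and the non-irradiated array was not well above background. The log2 change was 0.25 against the irradiated primary (SE 1.06, limma adjusted p = 0.92) and turned to -0.55 without nodule 3 (adjusted p = 0.412). Over the non-irradiated primary Fabp4 read 4.16-fold higher in the mean of the nodules, but the difference did not pass (log2 change 2.06, SE 1.06, limma adjusted p = 0.234). That fold is carried by nodule 3: the log2 change was 1.26 without it (adjusted p = 0.0903) and 1.01 with normexp background correction (0.321). Cfd read -7.42, -4.96 and -4.98 in the nodules, against -5.46 in the irradiated and -7.98 in the non-irradiated primary. Nodule 1 and the non-irradiated primary were not well above background, so Cfd was measured on 3 of the 5 arrays. Its log2 change was -0.33 against the irradiated primary (SE 1.10, limma adjusted p = 0.895) and 0.49 without nodule 1 (adjusted p = 0.366). Against the non-irradiated primary the log2 change of Cfd was 2.19 (SE 1.10, limma adjusted p = 0.224). The bound defined for Lipe gave 1.26-fold, but it takes nodule 1 at a reading not well above background, so it is no lower limit. Without nodule 1 Cfd passed (log2 change 3.01, limma adjusted p = 0.00153), as did 6472 of 19075 features. That p-value rests on 2 nodule readings, -4.96 and -4.98, and a primary value not well above background. With normexp background correction the log2 change of Cfd was 0.40 (adjusted p = 0.352). The spots of the Cfd probe differed by up to 1.19 on the log2 scale, more than for any other of the 7 genes, and Cfd and Fabp4 are not among the probes of the deposited value table.

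**Figure D1:**
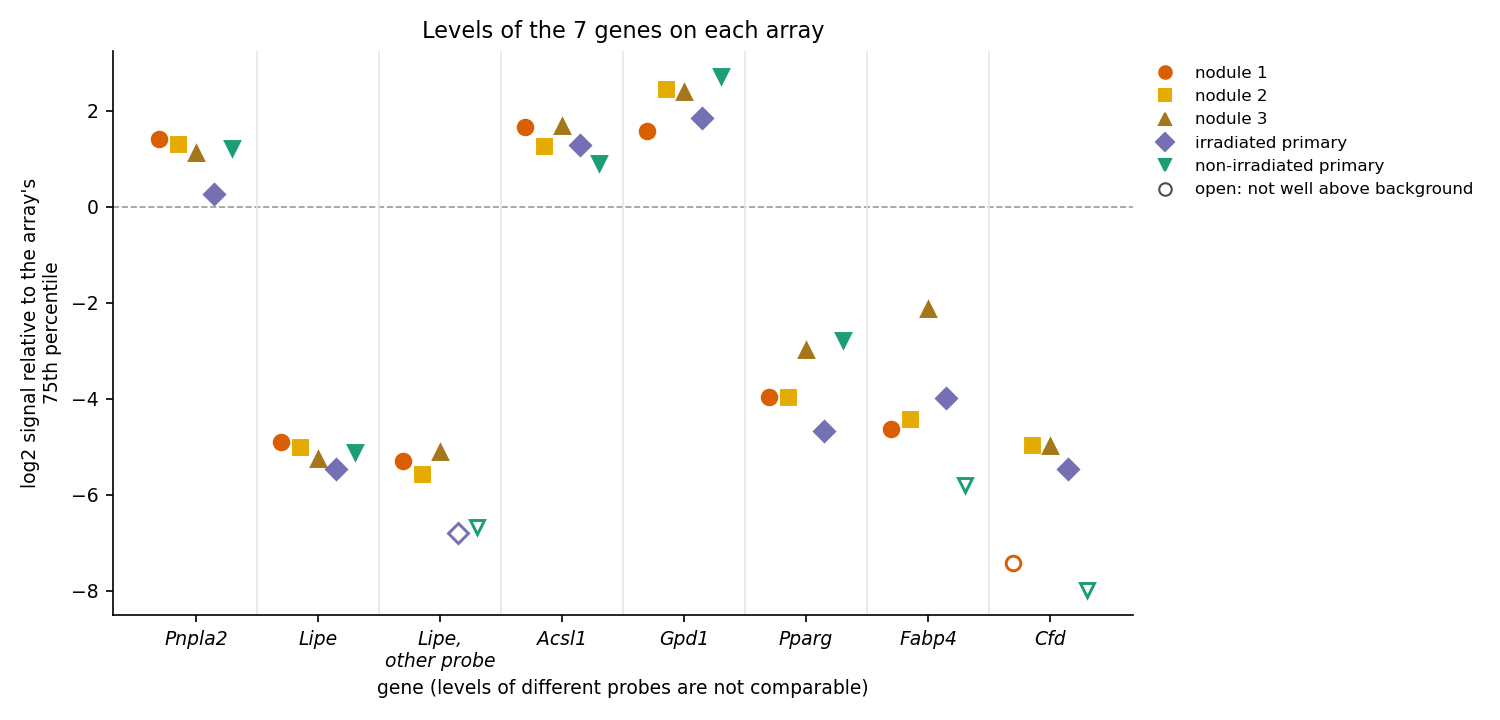
Level of each of the 7 genes on each array, with both Lipe probes, as log2 signal relative to the 75th percentile of the array; open symbols were not well above background. Pnpla2 is lowest in the irradiated primary (0.26), and Fabp4 is highest in nodule 3 (-2.14).

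The lipases and the fat cell markers were then set side by side over each nodule. Nodules 1, 2 and 3 differed from the irradiated primary by 1.16, 1.05 and 0.85 for Pnpla2 and by 0.58, 0.47 and 0.21 for Lipe. The same nodules differed from it by -0.66, -0.45 and 1.84 for Fabp4 and by -1.96, 0.50 and 0.48 for Cfd. From the non-irradiated primary they differed by 0.19, 0.08 and -0.12 for Pnpla2 and by 0.21, 0.10 and -0.16 for Lipe, against 1.15, 1.37 and 3.65 for Fabp4 and 0.56, 3.02 and 3.00 for Cfd. Pnpla2 and the brighter Lipe probe thus stood within 0.21 of the non-irradiated primary in every nodule, whereas Fabp4 exceeded it in 3 of 3 and Cfd in the 2 nodules where it was detected. Neither side of the Cfd difference in nodule 1 was well above background, so it has no direction. The other Lipe probe exceeded the non-irradiated primary by 1.38, 1.12 and 1.57. Pparg and Gpd1, also on the fat cell marker list, lay below that primary in every nodule. They differed from it by -1.17, -1.19 and -0.21 for Pparg and by -1.13, -0.26 and -0.31 for Gpd1. The fat cell markers thus did not share 1 direction. Whether the lipases differ from Fabp4 and Cfd was not tested. The comparisons share the nodules.

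**Figure D2:**
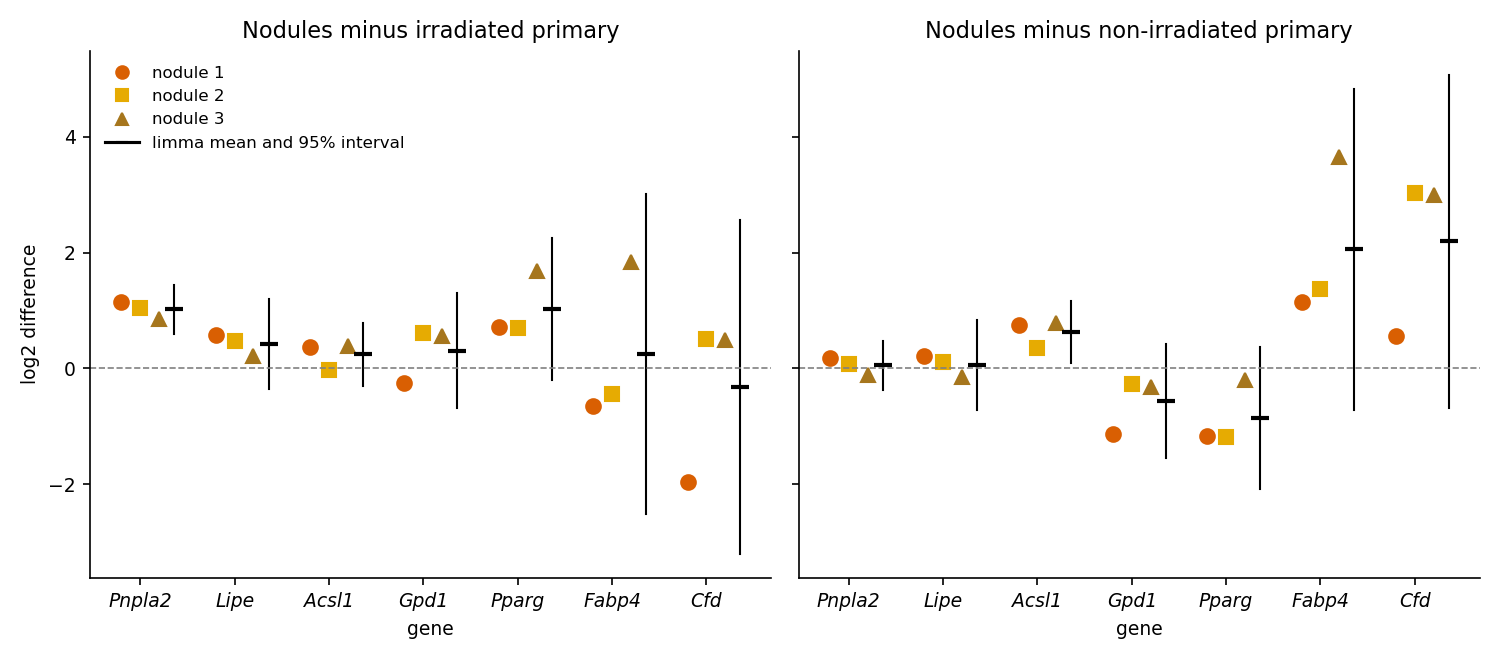
Log2 difference of each nodule from the irradiated primary (left) and from the non-irradiated primary (right) for the 7 genes, with the mean and its 95% interval from limma. Only the interval of Pnpla2 against the irradiated primary and of Acsl1 against the non-irradiated primary (0.087 to 1.17, before adjustment) leave out 0.

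Counted over the set, 1 of 7 genes rose against the irradiated primary and 0 fell by limma, where 3.72% of all features passed (0.909% rose and 2.81% fell). In the other comparison, against the non-irradiated primary, 0 of 7 passed limma (1 of 7, Acsl1, at an unadjusted p under 0.05), where 9.72% of all features rose and 8.85% fell. The median log2 change was 0.31 against the irradiated primary and 0.05 against the non-irradiated primary, beside 0.03 and 0.04 over all features. All 3 nodules lay above the irradiated primary for 3 of the 7 genes, Pnpla2, Lipe and Pparg, and so did 36.2% of all features. They lay below it for 0 of the 7, beside 31.8% of all features. They lay above the non-irradiated primary for Fabp4, Acsl1 and, by values that in nodule 1 and in that primary were not well above background, Cfd (40.1% of all features) and below it for Pparg and Gpd1 (36.8%).

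The irradiated and the non-irradiated primary were compared with 1 array each, so their differences carry no replicate check. Irradiation and differences between single tumours cannot be told apart here. The irradiated primary is dated from irradiation and the other from implantation, so time since implantation may differ too. By the bound defined for Lipe, Cfd was at least 1.59-fold higher in the irradiated primary. Fabp4 read 3.51-fold higher there, and Pparg was 3.69-fold higher in the non-irradiated primary. Neither Cfd nor Fabp4 was well above background in the non-irradiated primary. With normexp background correction Cfd was 0.40 and Fabp4 0.75 higher in the irradiated primary on the log2 scale. These 3 of 7 genes were at least 2-fold apart by measured values, as were 16.4% of 18442 features (9.3% higher and 7.13% lower in the irradiated primary). With normexp background correction 1 of them, Pparg, was. Between nodules, the same 2-fold difference was reached by Cfd (nodules 1 and 2), by Fabp4 and Cfd (nodules 1 and 3) and by Fabp4 (nodules 2 and 3), where 5.21%, 7.04% and 2.26% of features reached it. Pnpla2, Lipe, Acsl1, Gpd1 and Pparg stayed under it between all pairs of nodules.

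Detection of fat cell markers was partial and differed between arrays. Of 21 fat cell markers with a probe, 8, 10 and 12 were well above background in nodules 1, 2 and 3, against 9 in the irradiated and 6 in the non-irradiated primary. The adipokines Adipoq (adiponectin), Lep (leptin) and Retn (resistin) were not well above background on any array, nor were Lpl, Pck1, Aqp7, Cidea, Npr3 and Trarg1. Plin1, Plin4 and Adig were not matched to a probe. Adipoq read -8.65, -8.84 and -8.94 in the nodules, against -7.49 in the irradiated and -8.26 in the non-irradiated primary. The 9 markers tested included Cfd, Fabp4, Pparg, Lipe and Gpd1 of the 7 genes, so their counts are not separate from those above. Of the 9, 0 passed limma against the irradiated primary (1 at an unadjusted p under 0.05), where 3.72% of all features did. In the comparison with the non-irradiated primary 2 of the 9 rose, where 9.72% of all features did. They were the transcription factor Cebpa (at least 1.88-fold higher, limma adjusted p = 0.0274) and the synuclein Sncg (log2 change 1.42, SE 0.27, adjusted p = 0.0316). With normexp background correction the log2 change of Cebpa was 0.19. The median of the 9 was 0.67. Sncg, which nerve cells also express, supplied most of the summed signal of the markers outside the 7 genes. Those markers summed to 11.2, 17.3 and 15.5 times the 75th percentile in the nodules, against 13.3 in the irradiated and 5.64 in the non-irradiated primary, and without Sncg the sum was 0.208, 0.176 and 0.504 in the nodules, against 0.668 in the irradiated and 0.358 in the non-irradiated primary.

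A few fat cell genes were high in nodule 3 together with Fabp4, of which Adrb3 and Ucp1 were singled out after their values were seen. The list as a whole did not share that order, since its sum without the 7 genes and Sncg was highest in the irradiated primary. Of the 9 tested markers, 5 were at least 2-fold higher and 1 at least 2-fold lower in the irradiated than in the non-irradiated primary (median log2 difference 1.05). Cfd and Fabp4 among the higher and Pparg as the lower were already counted with the 7 genes. Of all features 9.3% were higher and 7.13% lower. The droplet protein Cidec read -7.84, -7.20 and -5.08 in the nodules, against -6.89 in the irradiated and -8.20 in the non-irradiated primary. Nodule 3 was the only sample with Cidec well above background. The β3-adrenergic receptor Adrb3, which starts lipolysis in fat cells, read -6.52, -6.56 and -4.31 in the nodules, against -7.33 and -7.64 in the irradiated and non-irradiated primary, and was well above background in nodule 3 alone. Ucp1, the uncoupling protein of brown fat, read -7.40, -6.01 and -4.65 in the nodules, against -7.70 in the irradiated and -7.56 in the non-irradiated primary, and was well above background in nodules 2 and 3. None of these was tested, since none was measured on all arrays of a group. Heart muscle markers were high in the same nodule. Their summed level was 59.3 in nodule 3, against 7.71 and 7.18 in nodules 1 and 2, 11.9 in the irradiated and 9.27 in the non-irradiated primary, and 14 of 15 were well above background there. The heart troponin Tnnt2 read 2.07, 0.84 and 3.38 in nodules 1, 2 and 3, against 1.61 in the irradiated and 2.39 in the non-irradiated primary. The part of heart tissue in the values of Fabp4, Cidec, Adrb3 and Ucp1 was not tested. Endothelial markers, from cells that also use Fabp4, had a sum of 6.45, 4.15 and 2.36 in nodules 1, 2 and 3, against 2.74 in the irradiated and 4.69 in the non-irradiated primary. The markers did not share 1 order over the nodules. Pecam1 read 0.99, -0.01 and -0.77 in the nodules, against -1.10 in the irradiated and -1.23 in the non-irradiated primary. Cd93 read -2.70, 0.04 and -0.88 in the nodules, against 0.34 in the irradiated and 1.5 in the non-irradiated primary, so nodule 1 was the highest sample for Pecam1 and the lowest for Cd93. Cldn5, Emcn, Sox17, Tek and Tie1 were not well above background on any array.

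**Figure D3:**
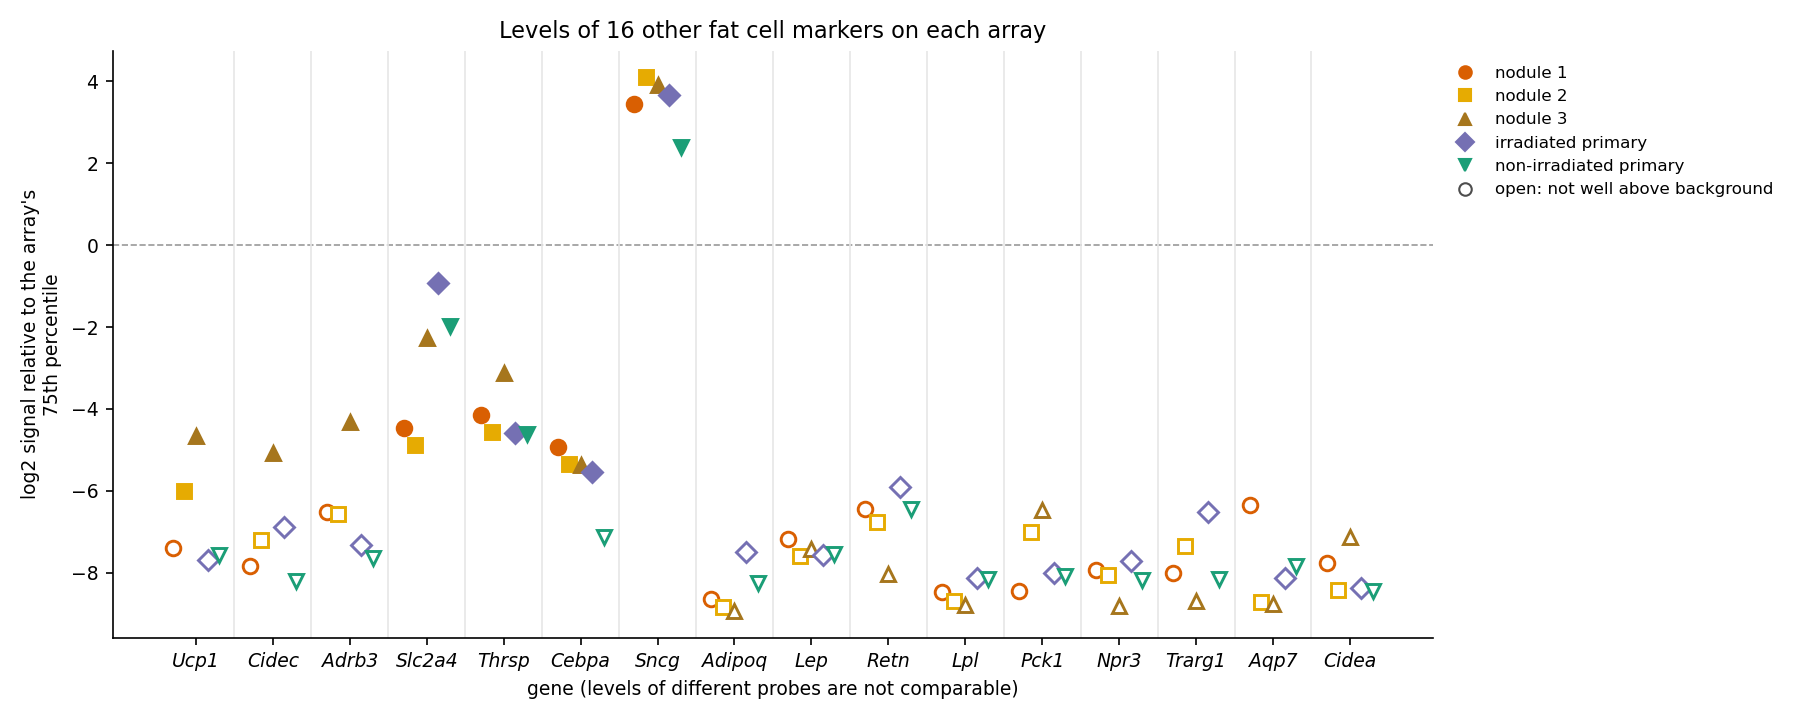
Level of 16 further fat cell markers on each array, as log2 signal relative to the 75th percentile of the array; open symbols were not well above background. Adipoq and Lep are open on every array, and Cidec and Adrb3 are filled in nodule 3 alone.

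The wider lipolysis pathway held 15 tested genes of 18 with a probe, and 1 rose (Pnpla2), 1 fell (Plin5) and 13 did not pass limma against the irradiated primary, with a median log2 change of 0.17. Of all features 0.909% rose and 2.81% fell, with a median of 0.03. Plin5, the droplet coat protein of oxidative muscle that binds Pnpla2, read -8.61, -8.78 and -8.89 in the nodules, against -1.28 in the irradiated and -8.29 in the non-irradiated primary. It was well above background in the irradiated primary alone, where it stood on 1 spot, and was at least 41.0-fold lower in the nodules and at least 28.7-fold higher in the irradiated than in the non-irradiated primary. The log2 change was -7.48 (limma adjusted p = 0.00661), or -3.00 with normexp background correction (adjusted p = 0.00102). Plin5 entered the test only through the irradiated array, and its p-values rest on the spread of 3 nodule readings that were not well above background, so the detection on 1 spot has no replicate support. The call was lost without nodule 2 (limma adjusted p = 0.0574), where 0 of 18993 features passed and no call could be kept. Plin2, the coat protein found on droplets of most cells, read 3.10, 2.67 and 2.52 in the nodules, against 4.01 in the irradiated and 3.46 in the non-irradiated primary. Both primaries thus exceeded every nodule, but the log2 change of -1.25 against the irradiated primary did not pass (SE 0.25, limma adjusted p = 0.0741), nor did -0.69 against the non-irradiated primary (adjusted p = 0.117). Without nodule 1 Plin2 passed against both (limma adjusted p = 0.00157 and 0.00455), as did 3232 and 6472 of 19075 features.

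The coactivator and the inhibitor of Pnpla2, Abhd5 and G0s2, did not pass against either primary. The coactivator Abhd5 read -1.83, -2.32 and -1.99 in the nodules, against -1.72 in the irradiated and -1.75 in the non-irradiated primary. The inhibitor G0s2 read 2.36, -0.17 and 0.03 in the nodules, against 1.04 and 1.41 in the irradiated and non-irradiated primary, so nodule 1 stood above both primaries and the other nodules below. The monoglyceride lipase Mgll, which completes lipolysis, read -2.38, -3.69 and -3.62 in the nodules, against -3.40 in the irradiated and -5.00 in the non-irradiated primary (log2 change 1.77 against the non-irradiated one, SE 0.59, limma adjusted p = 0.103). Hilpda was not matched to a probe. Against the non-irradiated primary 1 of the 15 lipolysis genes rose, the protein kinase A subunit Prkar2b (log2 change 3.21, SE 0.73, limma adjusted p = 0.0451), 0 fell, and the median was 0.05. Of all features 9.72% rose and 8.85% fell in that comparison.

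Skeletal muscle markers, from a tissue that runs on these enzymes, moved in the same comparison as Pnpla2 and Plin5. They also moved against the non-irradiated primary, where 12 of 18 tested fell and 1 rose by limma, with a median log2 change of -2.53. Of all features 8.85% fell and 9.72% rose there. Neither Pnpla2 (log2 change 0.05) nor Plin5 (-0.47) passed in that comparison. The summed level of the muscle markers was 32.9, 37.2 and 36.2 in nodules 1, 2 and 3, against 203 in the irradiated and 53.2 in the non-irradiated primary. Against the irradiated primary 14 of 18 tested fell. Eno3, the brightest of these markers, supplied most of the sum in each nodule. Its log2 change was 0.02 against the irradiated primary (limma adjusted p = 0.935) and 1.17 against the non-irradiated primary (adjusted p = 0.0134). The median log2 level of the list was -3.51, -3.99 and -3.14 in the nodules, against 1.99 in the irradiated and -0.25 in the non-irradiated primary. The muscle troponin Tnni2 read 1.86, 1.94 and 1.94 in the nodules, against 5.32 in the irradiated and 3.49 in the non-irradiated primary. Pnpla2 was lowest, and Plin5 highest, in the primary with the most muscle signal, and the part of muscle tissue in either value was not tested. Markers of alveolar type 2 and club cells, the host tissue around lung nodules, also differed between samples. Their summed level was 81.6, 41.0 and 16.7 in nodules 1, 2 and 3, against 11.5 in the irradiated and 30.6 in the non-irradiated primary, and 13, 13 and 9 of 14 were well above background in the nodules, against 7 in each primary. Etv5, the brightest of them, supplied most of the sum in nodule 3 and in both primaries. It read 3.31, 4.28 and 4.01 in the nodules, against 3.42 in the irradiated and 4.85 in the non-irradiated primary. The median log2 level of the list was 0.21, -0.73 and -5.23 in the nodules, against -5.86 in the irradiated and -5.59 in the non-irradiated primary. The alveolar protease Napsa read 2.00, -0.08 and -2.83 in the nodules, against -2.27 in the irradiated and 0.03 in the non-irradiated primary. Nodule 1, the highest in the sum and the median of these markers but the lowest for Etv5, was also the highest for Pnpla2 and G0s2. It was the lowest for Gpd1, and the part of lung tissue in these values was not tested.

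In the other lipid pathways 1 gene passed against the irradiated primary, where 3.72% of all features did. Of 20 genes of triglyceride synthesis and droplet formation 0 passed limma (4 at an unadjusted p under 0.05, median 0.14). The same held for 0 of 13 adipogenic regulators (1 at an unadjusted p under 0.05, median -0.05) and 0 of 15 PPAR targets of fatty acid oxidation (4, median -0.19). Of 12 genes of fatty acid uptake 1 fell and 11 did not pass, with a median of 0.39. That gene was Angptl4, a secreted inhibitor of lipoprotein lipase, which read -1.62, -1.89 and -1.93 in the nodules, against 0.92 in the irradiated and -2.77 in the non-irradiated primary. The nodules lay between the primaries, 2.74 below the irradiated one (limma adjusted p = 0.011) and 0.96 above the non-irradiated one (SE 0.19 for both, adjusted p = 0.0369). Without nodule 2 neither Angptl4 call held (limma adjusted p = 0.0727 and 0.118), and without nodule 3 the rise was lost (0.0829). No call of any gene could hold without nodule 2, where 0 of 18993 features passed against either primary.

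More of these genes passed against the non-irradiated primary, as did 18.6% of all features. Among adipogenic regulators 3 of 13 rose and 0 fell, with a median of 0.29: Cebpa as above, its relative Cebpb (log2 change 0.91, SE 0.20, limma adjusted p = 0.0422) and the coactivator Ppargc1b (log2 change 1.14, SE 0.20, adjusted p = 0.0272). In fatty acid oxidation 4 of 15 rose, 2 fell and 9 did not pass, with a median of 0.12. The carnitine transferase Cpt1a rose by 0.90 (limma adjusted p = 0.033), and the dehydrogenases Acadl and Acadm rose by 0.62 (0.0282) and 0.77 (0.0395). The kinase Pdk4, which holds back glucose oxidation, was at least 1.65-fold higher (adjusted p = 0.0423). The muscle-type transferase Cpt1b fell by 0.96 (limma adjusted p = 0.0244), or by 0.12 with the mean of its probes (adjusted p = 0.749), and the thioesterase Acot2 fell by 0.91 (adjusted p = 0.0231). In triglyceride synthesis Acsl5, a relative of Acsl1, rose by 1.20 (SE 0.12, limma adjusted p = 0.0131), the acyltransferase Gpam fell by 0.86 (SE 0.19, adjusted p = 0.0451), and 18 of 20 did not pass (median 0.13). In fatty acid uptake 1 of 12 rose, Angptl4, and the median was 0.82. With normexp background correction Cebpa (log2 change 0.19, limma adjusted p = 0.482) and Pdk4 (log2 change 0.08, adjusted p = 0.75) no longer passed. Every one of these calls, with those of Prkar2b and Sncg, was lost without nodule 2 (limma adjusted p from 0.066) and without nodule 3 (from 0.0544). The loss without nodule 2 was fixed for every gene, since 0 of 18993 features passed there. Without nodule 3 296 of 19150 features passed. Macrophage markers also differed in that comparison, with 8 of 17 higher, 3 lower, and a summed level of 68.0, 60.7 and 52.9 in the nodules, against 67.7 in the irradiated and 39.4 in the non-irradiated primary. C1qb and C1qa, the brightest of them, supplied most of the sum in each nodule. The median log2 level of the list was -2.13, -2.19 and -1.70 in the nodules, against -1.275 in the irradiated and -1.89 in the non-irradiated primary. The part of macrophages in these lipid genes was not tested.

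**Figure D4:**
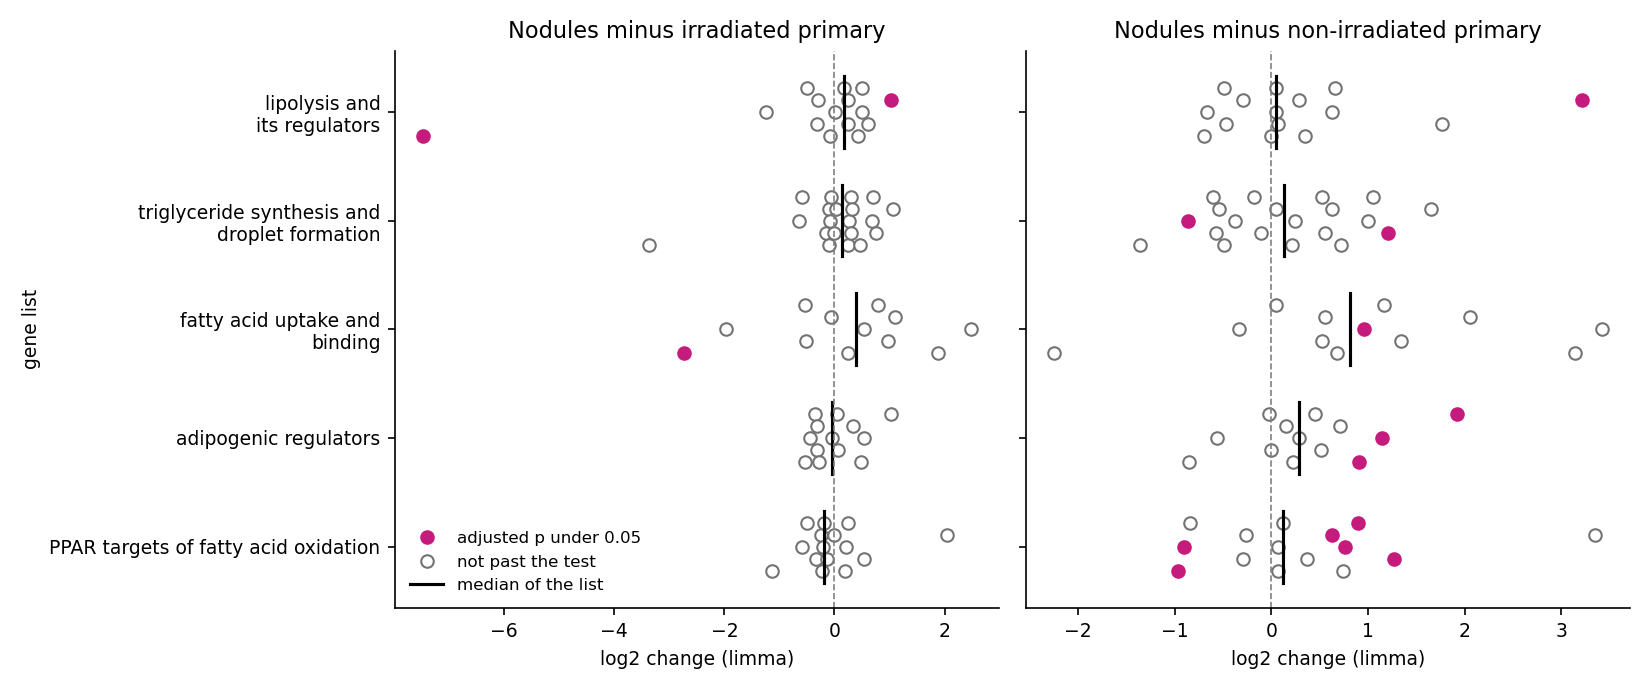
Log2 change of each tested gene of 5 lipid pathway lists in the nodules against the irradiated (left) and the non-irradiated primary (right), from limma; filled points passed at an adjusted p under 0.05 and bars are medians. The far left point of the lipolysis list is Plin5, whose probe was not well above background in the nodules.

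**Figure D5:**
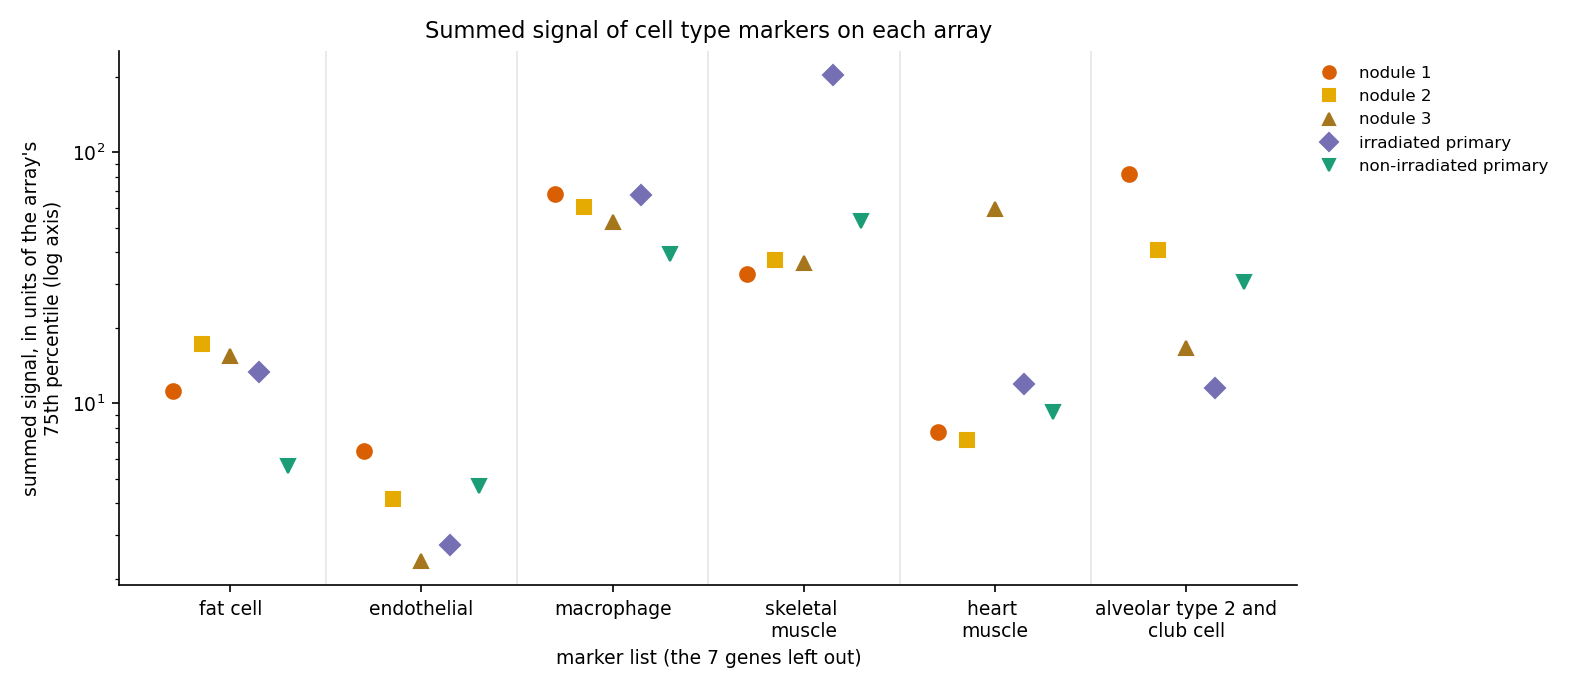
Summed signal of cell type markers on each array, without the 7 genes, in units of the 75th percentile of the array (log axis). Skeletal muscle stands out in the irradiated primary (203), heart muscle in nodule 3 (59.3) and the alveolar and club cell list in nodule 1 (81.6).

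Genes of like pattern were sought for the 3 genes well above background on all 5 arrays with a range of at least 1, by the root mean square difference of levels centred over the 5 arrays, among 10032 other named genes. Nearest to Pnpla2 were Slc4a7 (0.0758), Lgalsl (0.0838) and Plcd3 (0.0853), each also lowest in the irradiated primary, and Plcd3 also rose in the nodules against it (log2 change 1.05, limma adjusted p = 0.0381). Nearest to Gpd1 were Ddah2 (0.102), Spdef (0.103) and Ddx54 (0.113). Pparg had no such close neighbour, with Dnajc30 (0.242), Hsd17b7 (0.268) and Dhrsx (0.296) nearest. With 5 arrays and this many genes, near matches of this kind describe the samples only.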

How the data were processed

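RNA of 5 samples was measured on single-colour (Cy3) Agilent rat arrays, 1 array per sample. Spot signals were deposited as intensity values from Agilent Feature Extraction 11.0, per the submitters' processing notes, with background subtraction and detrending within each array, per the file headers. Each spot also has deposited flags, coded 0 or 1, for detection over background, saturation and outliers, a kind of other value, per the file headers. A deposited table holds log2 values of 18502 probes, for which the authors' method is not given in the sources used here; its sorted columns differed by at most 0.000749.

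Outlier spots (0.603 to 0.865% of gene spots per array) were left out, the log2 signals of a probe's spots averaged, and each array's 75th percentile over non-control probes subtracted. A probe counted as well above background when more than 50% of its usable spots did. Names came from the RefSeq accession of each probe (18354 of 30363 probes, 15442 symbols, gene table of GRCr8); the array design rests on an older build, so gene coordinates are not given. A probe was tested if every array of 1 or more groups detected it, and the brightest stood for a gene. Groups were compared with limma 3.58.1 (R 4.3.3), using a mean for each of the 3 groups (intensity trend, 2 residual degrees of freedom, Benjamini-Hochberg adjustment over 18913 features, threshold 0.05), and the fit was tested on simulated data. The lone primaries were assumed to vary like the nodules. Alternatives were other scaling, background correction, filters, variance model, probe rule, the deposited table and leaving out each nodule.

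All 7 genes are described, with Adipoq, Lep, Cidec, Abhd5, G0s2, Mgll and Plin2 of the lists and up to 6 genes per pathway list that passed against either primary. Of each list of other cell types the 3 brightest markers could be named. The genes and lists were chosen with earlier results of these data known.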

Additional observations from a re-analysis of the deposited data

How the results depend on the processing

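The count of the 7 genes that passed against the irradiated primary was 1 with array median scaling, normexp, a filter for detection on all 5 arrays and the mean of all probes. It was 0 with quantile normalization, 0 on the deposited table, 0 with no filter on dim probes and 0 without an intensity trend, and between 0 and 2 when a nodule was left out. Against the non-irradiated primary it was 0 in all 8 processing settings and between 0 and 1 when a nodule was left out. Over all features 704 passed against the irradiated primary, 438 with array median scaling, 399 without an intensity trend, and between 0 and 3232 when a nodule was left out, the 0 being without nodule 2 (2705 at an unadjusted p under 0.05). Against the non-irradiated primary 3512 passed, and between 0 and 6472 when a nodule was left out, again 0 without nodule 2 (5008 at an unadjusted p under 0.05). Between the primaries 3030 features were at least 2-fold apart, 1495 with normexp, and of the 7 genes 3 were, 1 with normexp, 1 on the deposited table and 1 when detection on all 5 arrays was required. The last 2 settings hold neither Fabp4 nor Cfd. The cause of the other differences was not tested.

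Values near 0 changed sign. Against the non-irradiated primary Pnpla2 read -0.0021 with quantile normalization, -0.0033 on the deposited table and -0.018 to 0.13 when a nodule was left out, and Lipe read -0.12 with normexp and -0.026 to 0.16 when a nodule was left out. Against the irradiated primary Cfd read 5.72e-05 with normexp and -0.74 to 0.49 when a nodule was left out, and Fabp4 read -0.55 to 0.70. Array median scaling moved the median of all features by 0.093 against the irradiated primary. Calls of the lipid pathway genes against the non-irradiated primary were also lost in 1 to 4 processing settings, except for Acsl5, Ppargc1b and Acot2. Dim signal limits Lipe, Cfd and Fabp4. No paired analysis was possible because each primary is a single array.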
